A study of Danio rerio with 20 samples.

Results

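Among the zebrafish leukemias labelled as high in self-renewal, 3 of 8 tumors had dntt at 1 CPM or more and 5 were under that level, and the transcriptomes of these groups were compared. The groups were chosen by the measured level of dntt itself: tumors at 1 CPM or more (counts per 1e6 counted reads of the tumor) are called dntt-expressing, and those under 1 CPM dntt-negative. The dntt-expressing tumors were 8.4.1.1.1, 14.1.1.1 and 4.3.1, and the dntt-negative tumors were 8.3, 2.1, 15.2, 13.1.1 and 7.2.1. They were 8 of the 11 tumors of the series, and the other 3, labelled low, gave values outside the comparison. The 3 groups had 4, 10 and 6 of the 20 libraries of polyA RNA. Every sample was of the CG1 background strain, with leukemia cells as source and blood as cell type. No source used here gives the leukemia driver, or the age or sex of the fish. The series text counts 6 high and 5 low tumors, against 8 and 3 in the sample labels, which are followed here. The titles of 8.3 and 8.4.1.1.1 begin with the same number, and no label says how these tumors are related. No label says that the tumors came from separate fish, so the p-values reflect only how much these tumors vary, which may be partly technical.

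dntt encodes terminal deoxynucleotidyl transferase, a DNA polymerase that works without a template. It adds nucleotides to the ends that the RAG1 and RAG2 recombinase leaves when it cuts antigen receptor genes, and so widens the range of receptors. In the mammalian thymus it is a marker of immature cells that are rearranging their receptor genes, and in lymphoblastic leukemia of people it is a standard marker of immature lymphoblasts.

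The 3 dntt-expressing tumors had 20.6, 19.1 and 2.06 CPM of dntt (250, 221 and 45 reads), in the order in which they are named above. The 5 dntt-negative tumors had 0, 0.202, 0.0489, 0.0492 and 0.0841 CPM (0, 4, 1, 1 and 2 reads). The members nearest to the threshold were tumor 4.3.1 above it and tumor 2.1 under it. These values made the groups and are a description with no test. Tumor 4.3.1 was far lower in dntt than the others of its group, and each library on its own fell on the same side of 1 CPM as its tumor.

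Total counts were 12160723, 11573276 and 21854418 in the dntt-expressing tumors, and 19814360 to 32466048 in the dntt-negative ones. Tumors 8.4.1.1.1 and 14.1.1.1 had 1 library each and all others had 2, so depth moved with the groups (exact permutation p = 0.125 for total counts, two-sided, 3 against 5 tumors, smallest p that 56 splits allow 0.0179). Genes with at least 1 count numbered 18539, 18511 and 19843 in the dntt-expressing tumors and 20583 to 21647 in the dntt-negative ones. With every tumor thinned to 11573276 counts, they numbered 18429 to 18566 and 18825 to 20454, and the groups still did not overlap. T-cell transcripts were present in all 8 tumors: lck, the proximal kinase of the T-cell receptor, had 786 to 1239 CPM in dntt-expressing and 488 to 997 CPM in dntt-negative tumors. The CD4 co-receptor gene cd4-1 had 225 to 557 CPM and 238 to 604 CPM, and PAX5, a B-cell regulator, had at most 0.518 CPM in any of the 8. Tumor 8.3 stood apart on the first principal component (27.38% of the variance) at 137.93, against -43.83 to 41.53 in the other 7. The second component (20.01%) held the dntt-expressing tumors at 38.35 to 70.63 and the dntt-negative ones at -67.4 to 20.94. On the third (16.19%) the groups overlapped, at -14.56 to 53.98 and -101.61 to 48.61. The median correlation of log2 CPM between tumors of different groups was 0.896. It was 0.921 within the dntt-expressing and 0.875 within the dntt-negative tumors, so the groups were not distinct by this measure.

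No gene passed the threshold of 0.05 in edgeR's quasi-likelihood test, adjusted by Benjamini-Hochberg over all genes. Of 15220 genes tested without dntt, 0 were called higher and 0 lower in dntt-expressing tumors (0% in each direction), and the smallest adjusted p was 0.319. At an unadjusted p under 0.05 stood 583 genes higher (3.83%) and 863 lower (5.67%), 9.5% in all, where 5% would pass if no gene differed. By DESeq2, 49 genes were higher (0.322%) and 227 lower (1.49%) at the same threshold, and by limma-voom 0. The 3 dntt-expressing tumors lay above all 5 dntt-negative tumors in 476 genes (3.13%) and under all 5 in 473 (3.11%), together 6.24%. Over all genes the log2 fold changes had a median of -0.06, with 6903 positive and 8317 negative. Genes are therefore given by their levels in every tumor, and none of the differences holds at the adjusted threshold of edgeR.

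In levels, genes for DNA replication, nucleotide synthesis, ribosome assembly and amino acid supply stood higher in the dntt-expressing tumors by their list medians. FKBP5, KLF9 and other genes that glucocorticoids induce stood lower, as did the FOXO factor gene foxo3b and the p53 target gene SESN1. The nucleotide, ribosome, amino acid and glucocorticoid lists were put together after values had been seen, so their medians are a description and no support. The amino acid median fell from 0.66 to 0.20 without tumor 14.1.1.1. At the antigen receptor loci, trbc1, a T-cell receptor beta constant gene, was abundant in 4 of 5 dntt-negative tumors and close to absent from the fifth and from the dntt-expressing ones. Since the samples are bulk RNA, fewer cells of a type and less RNA per cell cannot be told apart.

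The recombinase genes overlapped between the groups. RAG2 (ENSDARG00000052121), a recombinase subunit, had 425, 818 and 680.5 CPM in the dntt-expressing tumors and 206, 279, 416, 492 and 312 CPM in the dntt-negative tumors. The groups overlapped, because dntt-negative tumor 13.1.1 was above dntt-expressing tumor 8.4.1.1.1. Its log2 fold change was 0.86 ± 0.31 (SE, 3 against 5 tumors, edgeR adjusted p = 0.487). RAG1 (ENSDARG00000052122), the subunit that cuts DNA, had 3196, 731 and 4530 CPM in the dntt-expressing tumors and 1566, 5157, 7091, 3233 and 7699 CPM in the dntt-negative tumors. Here the log2 fold change was negative, -0.86 ± 0.66 (edgeR adjusted p = 0.696), and the group ranges overlapped widely. RAG1 was thus abundant in the 5 dntt-negative tumors, down to 1566 CPM in tumor 8.3. Of the 16 genes listed for antigen receptor recombination other than dntt, RAG2 alone had an unadjusted p under 0.05. None of the 16 separated the groups, and their median log2 fold change was 0.11. Of all genes, 3.83% were higher and 5.67% lower at that p, and 6.24% separated the groups, so the list was near these shares.

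Receptor gene segments were looked at after their values were seen. trbc1 (ENSDARG00000091233), a constant region gene of the T-cell receptor beta chain, had 2, 6 and 3 reads in the dntt-expressing tumors (0.164, 0.518 and 0.137 CPM). In the dntt-negative tumors it had 0 reads in 8.3 and 2934, 2748, 2123 and 2965 reads in 2.1, 15.2, 13.1.1 and 7.2.1 (148, 134, 104 and 125 CPM). Tumor 8.3 therefore resembled the dntt-expressing tumors in this gene, and the groups overlapped. With 8.3 included the log2 fold change was -8.69 ± 2.13 (edgeR adjusted p = 0.486, DESeq2 adjusted p = 2.22e-04). Without 8.3 it was -9.02 ± 0.49 (edgeR adjusted p = 6.08e-04), one of 2 genes that passed the threshold in that fit. Leaving out 8.3, the dntt-negative tumor with 0 reads, favours this gene, so that p is a description only. With 6 reads at most in a dntt-expressing tumor, trbc1 passed the filter on low counts because of the dntt-negative tumors.

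Some variable segments of the T-cell receptor alpha and delta locus, picked after their values were seen, were read too rarely to be tested. tradv30.0.6 (ENSDARG00000087496) had 26, 1 and 116 reads in the dntt-expressing tumors and 1, 0, 0, 4 and 0 reads in the dntt-negative ones. The groups overlapped for this segment, since 14.1.1.1 (0.086 CPM) was under 13.1.1 (0.197 CPM). tradv36.2.12 (ENSDARG00000101803) had 22, 4 and 83 reads in the dntt-expressing tumors and 1, 0, 0, 1 and 0 in the dntt-negative ones. Both were most abundant in tumor 4.3.1, the tumor with the lowest dntt of its group, and least abundant of that group in 14.1.1.1. In CPM, tradv36.2.12 did separate the groups, but the joining segment traj1 (ENSDARG00000101668) did not. Reads of traj1 numbered 0, 0 and 166 in the dntt-expressing tumors and 0, 4, 0, 124 and 5 in the dntt-negative ones. These segments were under the filter on low counts and were not tested, and reads of similar segments may be shared or lost. At an unadjusted p under 0.05, 3.83% of all genes were higher and 5.67% lower. The general T-cell receptor list was close to level: of 29 members tested, 0 were higher and 2 lower at that p, and the median was -0.11. Its leading member cd247 (ENSDARG00000100284), the zeta signalling chain, had 89.96, 91.2 and 77.1 CPM in dntt-expressing and 119, 116, 164, 148 and 183 CPM in dntt-negative tumors. The groups did not overlap for cd247, with a log2 fold change of -0.80 ± 0.21 (edgeR adjusted p = 0.486, DESeq2 adjusted p = 0.0295). Of all genes, 3.11% lay under all dntt-negative tumors.

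**Figure D1:**
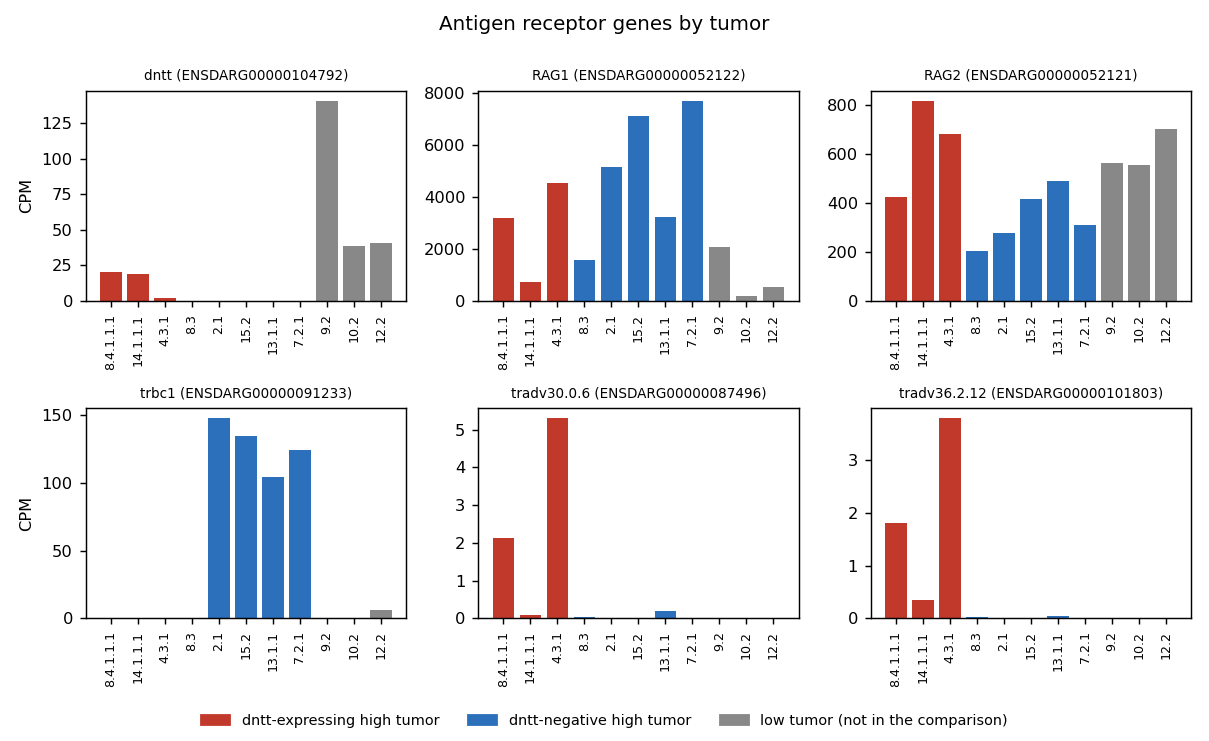
Levels in CPM (linear axis from 0) of dntt, RAG1, RAG2, trbc1 and 2 alpha/delta variable segments, with 1 bar per tumor: dntt-expressing (red), dntt-negative (blue) and low tumors (grey, outside the comparison). RAG1 was present at 731 CPM or more in all 8 high tumors, and trbc1 was at 104 to 148 CPM in 4 of the 5 dntt-negative tumors but at 0 in 8.3.

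FKBP5 (ENSDARG00000028396) was among the genes with the smallest p on the lower side. It encodes a co-chaperone of the glucocorticoid receptor and is itself a classic target of that receptor. FKBP5 had 8.30, 10.02 and 19.8 CPM in dntt-expressing tumors and 168, 81.0, 463, 298 and 614 CPM in dntt-negative tumors. The highest dntt-expressing tumor was under the lowest dntt-negative one, and the groups averaged 12.7 ± 6.18 (SD, n = 3) and 325 ± 217 CPM (SD, n = 5). The log2 fold change was -4.71 ± 0.74 (edgeR adjusted p = 0.319, DESeq2 adjusted p = 2.88e-11).

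A list of 16 tested genes, most of them known targets of glucocorticoids in mammals, was put together after values had been seen. All 16 had a negative fold change, 9 had an unadjusted p under 0.05 (all lower), 5 separated the groups and DESeq2 called 5. Of all genes tested, 5.67% were lower at that p, 3.11% lay under all dntt-negative tumors and DESeq2 called 1.49% lower. The median log2 fold change was -1.36, against -0.06 over all genes. It lay between -1.66 and -1.18 whichever tumor was left out, with 6 to 10 members lower at an unadjusted p under 0.05 (6 without 13.1.1). KLF9 (ENSDARG00000068194), a Krüppel-like repressor, had 15.7, 11.0 and 7.64 CPM in dntt-expressing tumors and 139, 18.8, 67.3, 133 and 52.4 CPM in dntt-negative tumors. Tumor 2.1 came nearest to the dntt-expressing tumors in both FKBP5 and KLF9, without reaching them. The KLF9 log2 fold change was -2.84 ± 0.63 (edgeR adjusted p = 0.461, DESeq2 adjusted p = 3.73e-04).

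The leucine zipper gene tsc22d3 (ENSDARG00000075666), known as GILZ in mammals, had 280.4, 172 and 263 CPM in dntt-expressing tumors. It had 458, 379, 523, 1070 and 711 CPM in dntt-negative tumors, again without overlap (log2 fold change -1.42 ± 0.36, DESeq2 adjusted p = 0.0147). The circadian repressor gene PER1 (ENSDARG00000056885) had 8.96, 13.998 and 2.52 CPM in dntt-expressing and 75.2, 16.4, 44.9, 33.4 and 58.6 CPM in dntt-negative tumors. These 4 genes and pnp4a (ENSDARG00000057575), a purine nucleoside phosphorylase gene, were the members that DESeq2 called. The mTORC1 inhibitor gene DDIT4 (ENSDARG00000037618) had 323, 123 and 271 CPM in dntt-expressing and 430.1, 309.9, 528, 1172 and 878 CPM in dntt-negative tumors. For DDIT4 the groups overlapped, since 8.4.1.1.1 was above 2.1. Averaged over the 17 matched members, the list stood at 4.11, 3.96 and 3.85 in dntt-expressing tumors and at 6.03, 4.65, 4.89, 5.72 and 5.15 in dntt-negative tumors, as mean log2(CPM + 1).

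FOXO factors drive quiescence, atrophy and apoptosis genes when growth signals are low. Of their list of 33 tested members, which includes SESN1 and PNPLA2 and was also put together after values had been seen, 0 were higher and 4 lower at an unadjusted p under 0.05, and the median was -0.14. At that p, 3.83% of all genes were higher and 5.67% lower. DESeq2 called 4 of the 33 lower, and 3 lay under all dntt-negative tumors, against 1.49% and 3.11% of all genes. Only the median was thus near the -0.06 of all genes. Among the lower members was foxo3b (ENSDARG00000042904) itself. It had 71.5, 58.8 and 55.8 CPM in dntt-expressing tumors and 131, 99.8, 185, 200.4 and 175 CPM in dntt-negative tumors, with no overlap (log2 fold change -1.38 ± 0.26, edgeR adjusted p = 0.410, DESeq2 adjusted p = 1.65e-04). The antiproliferative gene BTG1 (ENSDARG00000027249) had 431, 393 and 481 CPM in dntt-expressing tumors and 815, 529, 689, 1097 and 681 CPM in dntt-negative tumors, also without overlap. UCP2 (ENSDARG00000043154), a mitochondrial carrier gene chosen after its values were seen, had 94.4, 141 and 102 CPM against 422, 214, 254, 459 and 234 CPM.

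SESN1 (ENSDARG00000020693) encodes a sestrin, an inhibitor of mTORC1 that p53 and FOXO factors induce in mammals. It had 201, 143 and 261 CPM in dntt-expressing and 1157, 247, 638, 957 and 750.3 CPM in dntt-negative tumors. Only tumor 2.1, at 247 CPM, lay within the dntt-expressing range (log2 fold change -1.91 ± 0.45, edgeR adjusted p = 0.486, DESeq2 adjusted p = 0.00290). At an unadjusted p under 0.05, 3.83% of all genes were higher and 5.67% lower. SESN1 led the p53 target list, in which 1 of 26 tested members was higher and 6 were lower at an unadjusted p under 0.05, with a median of -0.21 (2 lower without 4.3.1 or 8.4.1.1.1, 9 lower without 7.2.1). Another member, the BH3-only death gene bbc3 (ENSDARG00000069282; PUMA in mammals), had 7.57, 6.39 and 1.28 CPM in dntt-expressing tumors and 41.0, 25.4, 32.3, 71.6 and 4.42 CPM in dntt-negative tumors. Here dntt-negative tumor 7.2.1 lay inside the dntt-expressing range. In the same list the death receptor gene fas (ENSDARG00000043586) ran the other way, at 33.6, 63.2 and 42.7 CPM in dntt-expressing and 30.9, 18.4, 16.7, 24.5 and 10.9 CPM in dntt-negative tumors.

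Other genes with small p-values on the lower side encode transporters, lipases and nuclear proteins. SLC43A2 (ENSDARG00000036848), a carrier of large neutral amino acids, had 22.0, 6.48 and 12.9 CPM in dntt-expressing tumors and 327, 105, 60.4, 213 and 127 CPM in dntt-negative tumors (log2 fold change -3.59 ± 0.66, edgeR adjusted p = 0.410). KAT2B (ENSDARG00000062634), a histone acetyltransferase gene, had 3.37, 2.25 and 3.80 CPM in dntt-expressing tumors. Its level was 13.6, 9.49, 10.6, 12.4 and 16.3 CPM in dntt-negative tumors, a narrow range in each group. RAD54L2 (ENSDARG00000063031), a helicase-like chromatin remodeler gene, had 111, 119 and 143 CPM against 382, 204, 254, 229 and 278 CPM in dntt-negative tumors. PNPLA2 (ENSDARG00000089390), the adipose triglyceride lipase gene, had 4.11, 2.94 and 4.76 CPM against 19.3, 18.02, 15.6, 15.9 and 7.86 CPM in dntt-negative tumors.

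APC2 (ENSDARG00000063007), a relative of the WNT pathway inhibitor APC, had 5 reads over the 3 dntt-expressing tumors and 922 over the 5 dntt-negative ones. RASSF8 (ENSDARG00000045485), which encodes a Ras-association protein, had 17 and 658 reads. No read of srsf3a (ENSDARG00000100815), a splicing factor gene, was counted in any dntt-expressing tumor, against 429 reads in the dntt-negative tumors. Against a floor of 3 reads over the dntt-expressing group, srsf3a was at least 55.8-fold lower. PNPLA4 (ENSDARG00000069834), another patatin-like lipase gene, also had 0 reads, against 500 in the dntt-negative tumors, and was at least 65.0-fold lower. Floors cover counting error only, and a near-identical copy could take reads of srsf3a. With no read in the dntt-expressing tumors, srsf3a and PNPLA4 passed the filter on low counts through the dntt-negative tumors alone. APC2 and RASSF8, at most at 0.164 and 0.691 CPM in dntt-expressing tumors, likewise passed it only because of the dntt-negative tumors. The place of these genes among the lower genes is thus a description only. All 10 lower genes with the smallest p separated the groups and were called by DESeq2. They were picked by their p in the same tumors, so this is no separate support. Of all genes, 3.11% lay under all dntt-negative tumors and DESeq2 called 1.49% lower.

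**Figure D2:**
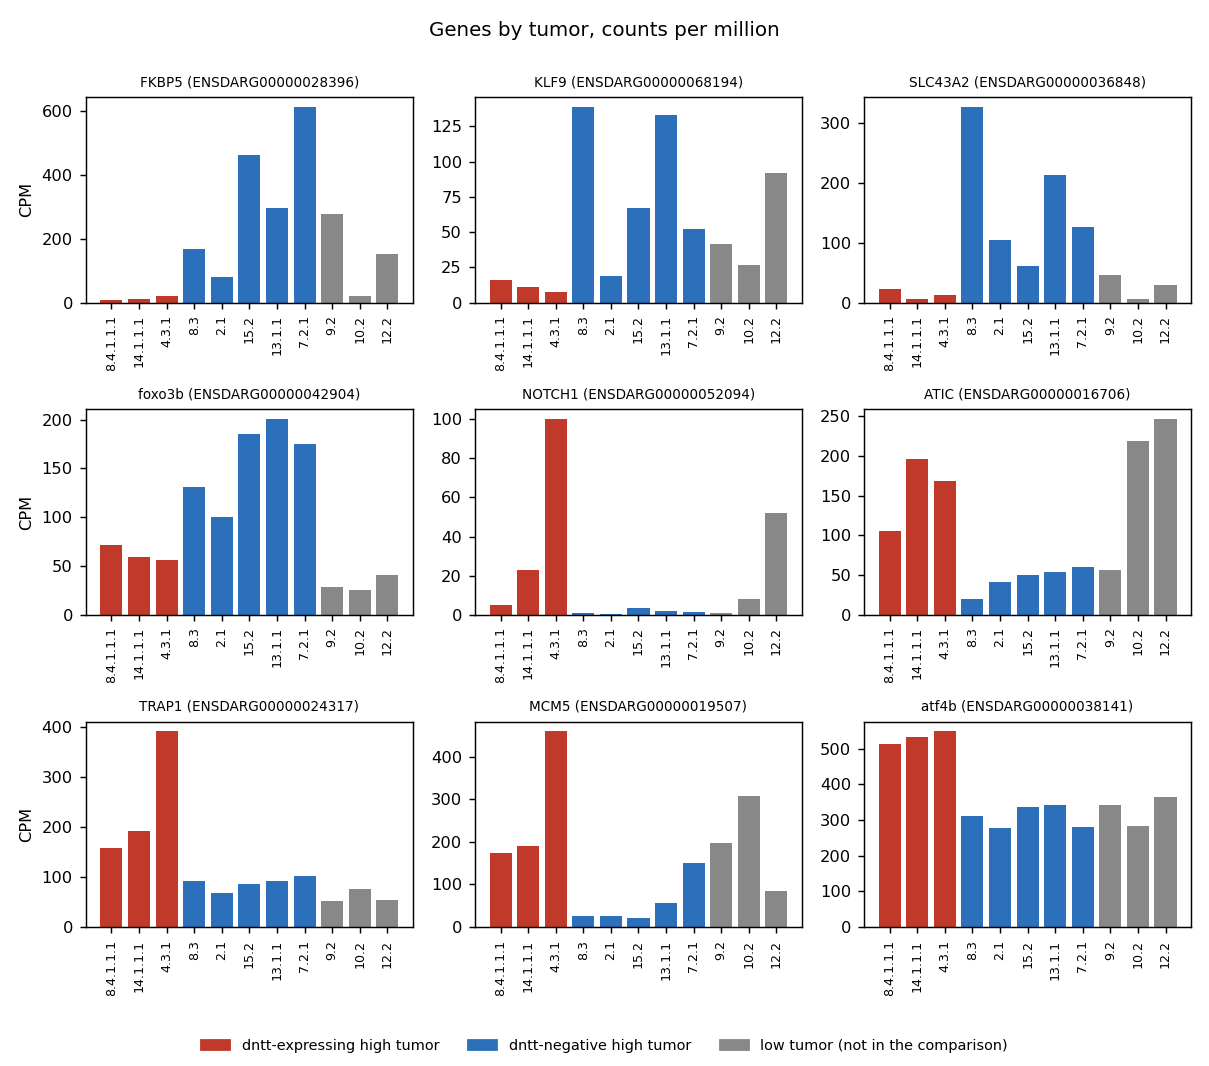
Levels in CPM (linear axes from 0, each gene with its own scale) of 9 genes in each tumor, as bars in red for dntt-expressing, blue for dntt-negative and grey for low tumors. FKBP5, KLF9, SLC43A2 and foxo3b were lower in all 3 dntt-expressing tumors than in any dntt-negative tumor, and the other 5 genes were higher; the low tumors lay on both sides.

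NOTCH1 was the receptor gene among the 10 higher genes with the smallest p. NOTCH receptors commit progenitors to the T lineage, and gain-of-function NOTCH1 mutations are frequent in T-cell leukemia of people. The NOTCH1 gene ENSDARG00000052094 had 4.85, 23.0 and 100.03 CPM in dntt-expressing tumors and 0.801, 0.505, 3.38, 1.72 and 1.68 CPM in dntt-negative tumors. The groups did not overlap, but the dntt-expressing tumors spread widely among themselves, with 4.3.1 highest (42.6 ± 50.5 CPM, SD, n = 3, against 1.62 ± 1.12, n = 5). The log2 fold change was 4.66 ± 0.89 (edgeR adjusted p = 0.410, DESeq2 adjusted p = 1.99e-05). The second NOTCH1 gene of the annotation, ENSDARG00000103554, had 56.1, 27.4 and 9.97 CPM in dntt-expressing and 1.08, 16.0, 8.27, 11.2 and 1.81 CPM in dntt-negative tumors, with overlap. Within the dntt-expressing tumors the NOTCH1 genes ran in opposite order.

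The ligand gene jag2a (ENSDARG00000014246) had 4.11, 22.5 and 29.8 CPM in dntt-expressing and 1.91, 4.59, 0.783, 0.148 and 1.85 CPM in dntt-negative tumors, with 8.4.1.1.1 inside the dntt-negative range. The ligand gene dll4 (ENSDARG00000070425) had a fold change of the other sign, at 0.082, 0.259 and 0.778 CPM in dntt-expressing and 0.462, 1.67, 7.54, 0.148 and 9.46 CPM in dntt-negative tumors, with overlap (log2 fold change -3.35 ± 1.43, edgeR adjusted p = 0.521). A target gene of the pathway went against the receptors. NRARP (ENSDARG00000091419), a feedback inhibitor that NOTCH induces, had 1.65, 1.12 and 1.37 CPM in dntt-expressing tumors and 5.97, 4.74, 3.82, 10.5 and 6.35 CPM in dntt-negative tumors (log2 fold change -2.20 ± 0.46, DESeq2 adjusted p = 3.20e-04). The other NRARP gene, ENSDARG00000018958, had at most 0.247 CPM in dntt-expressing and 0.168 to 0.689 CPM in dntt-negative tumors, with overlap (log2 fold change -1.88 ± 0.86, edgeR adjusted p = 0.54). This second gene passed the filter on low counts through the dntt-negative tumors alone. The pathway list of 31 tested genes had 2 higher and 2 lower members at an unadjusted p under 0.05 and a median of -0.14. Its ligand entry dld was matched through the symbol in capitals to a gene named DLD, which may not be the ligand gene. Among all genes, 3.83% were higher and 5.67% lower at that p. jag2a, dll4 and NRARP were chosen after their values were seen.

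All 45 tested genes of DNA replication and S phase had a positive fold change, with a median of 0.94. Of them 7 had an unadjusted p under 0.05, 5 separated the groups and DESeq2 called 2. Over all genes, 3.83% were higher at that p, 3.13% lay above all dntt-negative tumors and DESeq2 called 0.322% higher. The leading member GINS2 (ENSDARG00000002304), a subunit of the replicative helicase, had 17.9, 19.3 and 18.2 CPM in dntt-expressing tumors and 3.14, 3.13, 3.28, 7.62 and 10.7 CPM in dntt-negative tumors (log2 fold change 1.70 ± 0.46, edgeR adjusted p = 0.486, DESeq2 adjusted p = 0.0364). MCM5 (ENSDARG00000019507), of the helicase ring, was chosen after its values were seen and had 174, 189 and 459 CPM against 26.3, 27.2, 20.7, 55.5 and 151 CPM in dntt-negative tumors. Tumor 7.2.1 was the highest dntt-negative tumor in both genes. As a mean of log2(CPM + 1) over the 45 genes, the dntt-expressing tumors stood at 4.65, 4.99 and 5.37 and the dntt-negative tumors at 3.38, 3.23, 3.26, 4.13 and 5.18, so that 7.2.1 lay within the dntt-expressing range. Without 7.2.1, 37 of the 45 were higher at an unadjusted p under 0.05 and the median was 1.54, where 794 of all 14936 genes tested were higher at that level. Leaving out one of the other tumors gave 4 to 6 higher (4 without 4.3.1 or 15.2), with medians of 0.68 to 1.11.

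Mitosis genes had smaller positive values. Of 38 tested members, 36 had a positive fold change, against 6903 of 15220 genes in all, and the list median was 0.42. But 0 had an unadjusted p under 0.05 in either direction, where 3.83% of all genes were higher and 5.67% lower. The list median was 0.07 without 4.3.1 and 0.13 without 8.3 (27 of 38 positive in each). Without 7.2.1 it was 0.97, with 7 higher at that p, as were 794 of all 14936 genes tested. The leading member spc24 (ENSDARG00000093622), a kinetochore gene, had a log2 fold change of 1.14 ± 0.67 (edgeR adjusted p = 0.631), with overlapping groups. The lowest mitosis mean was that of tumor 8.3 at 1.67, and the highest that of tumor 7.2.1 at 4.86, both dntt-negative, with the dntt-expressing tumors at 3.77, 3.94 and 4.74.

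Nucleotide synthesis genes had a list mean that was higher in each dntt-expressing tumor than in any dntt-negative one. ATIC (ENSDARG00000016706), the enzyme of the last steps of purine synthesis, had 106, 195 and 168 CPM in dntt-expressing tumors and 20.1, 41.6, 50.1, 54.1 and 59.6 CPM in dntt-negative tumors. The means were 157 ± 46.1 CPM (SD, n = 3) and 45.1 ± 15.4 CPM (SD, n = 5), and the log2 fold change was 1.74 ± 0.34 (edgeR adjusted p = 0.410, DESeq2 adjusted p = 0.00146). ATIC belongs to a list of 19 purine and pyrimidine synthesis genes put together after values had been seen. In that list 9 members were higher and 0 lower at an unadjusted p under 0.05, and 7 separated the groups, all higher. The other members overlapped between the groups, and 4 of the 19 had a negative fold change. The shares over all genes were 3.83% higher at that p and 3.13% separated as higher. Leaving out 1 tumor left 7 to 9 higher, with medians of 0.45 to 0.63. CAD (ENSDARG00000041895), which starts pyrimidine synthesis, had 1001, 1002 and 1172 CPM in dntt-expressing and 619, 644, 572, 659 and 736 CPM in dntt-negative tumors. The list mean was 5.82, 5.99 and 5.91 in dntt-expressing tumors and 5.21 to 5.47 in dntt-negative tumors, including 7.2.1.

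Nucleolar genes were similar in pattern. Of 44 tested genes of ribosome assembly, a list put together after values had been seen, 19 were higher and 0 lower at an unadjusted p under 0.05. The groups were separated in 18 of them, and the median was 0.45, a small shift shared by 42 of the 44. Among all genes, 3.83% were higher at that p and 3.13% separated the groups as higher. Leaving out 1 tumor left 8 (without 8.4.1.1.1), 9 (without 14.1.1.1) or 11 to 21 members at that level, and upper-quartile scaling left 11, with medians of 0.38 to 0.58 throughout. SNU13 (ENSDARG00000069878), a core protein of box C/D small nucleolar RNPs, had 77.1, 106 and 117 CPM in dntt-expressing and 34.8, 28.9, 39.7, 57.9 and 47.9 CPM in dntt-negative tumors. It was the only member that DESeq2 called (log2 fold change 1.22 ± 0.24, DESeq2 adjusted p = 0.00116, edgeR adjusted p = 0.410). The other SNU13 gene, ENSDARG00000023299, was more abundant, at 249, 320 and 229 CPM in dntt-expressing and 110 to 191 CPM in dntt-negative tumors. Its log2 fold change was smaller, 0.65 ± 0.25 (DESeq2 adjusted p = 0.296). The rRNA methyltransferase gene FBL (ENSDARG00000053912) had 453, 572 and 405 CPM in dntt-expressing and 203, 315, 329, 273 and 369 CPM in dntt-negative tumors. The list mean was 7.71, 7.75 and 7.49 in dntt-expressing tumors and 7.10, 7.10, 7.15, 7.13 and 7.25 in dntt-negative tumors.

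**Figure D3:**
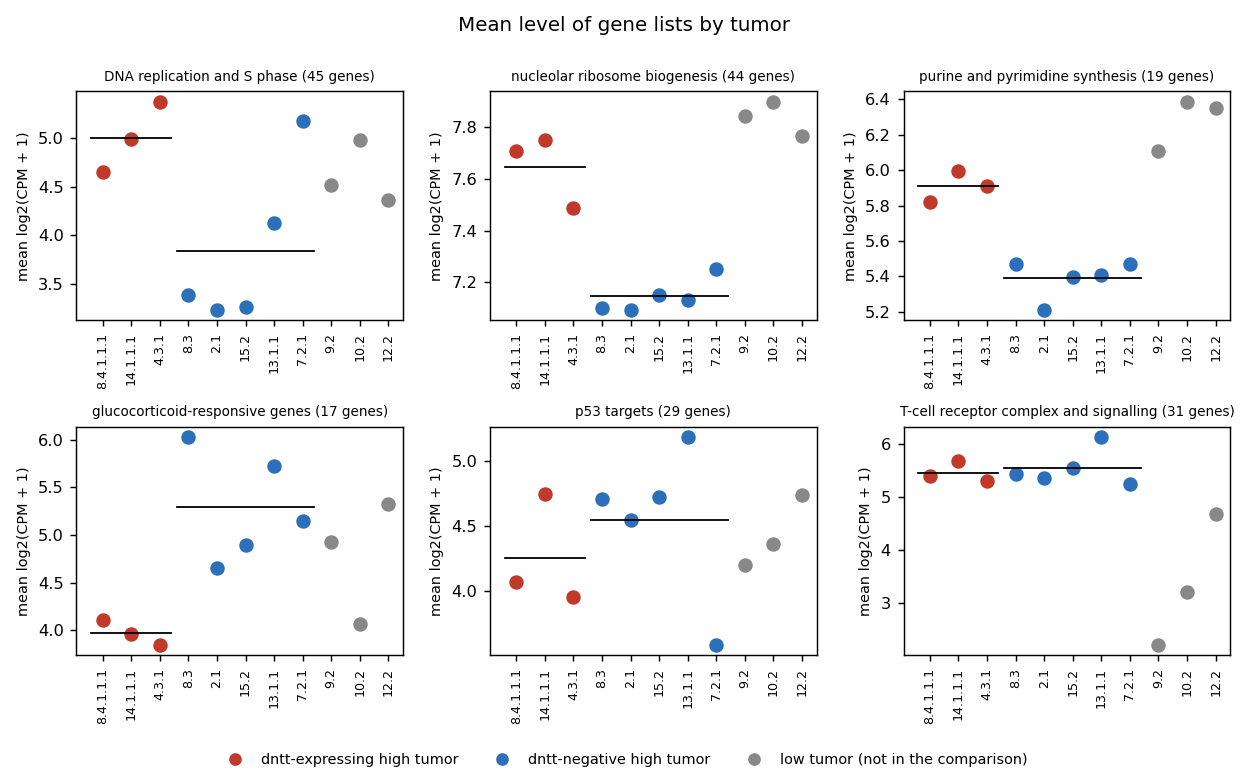
Mean of log2(CPM + 1) over the members of 6 gene lists, with 1 point per tumor (red dntt-expressing, blue dntt-negative, grey low) and a black line at the mean of each of the compared groups. Ribosome, nucleotide and glucocorticoid list means did not overlap between red and blue, but these lists were put together after values had been seen. In the other lists, tumor 7.2.1 reached the red points in DNA replication, and p53 targets and the T-cell receptor list overlapped.

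Genes of amino acid supply and of the stress factor ATF4 were also examined. atf4b (ENSDARG00000038141), one of the zebrafish ATF4 genes, had 512, 532 and 549 CPM in dntt-expressing tumors and 310.4, 278, 337, 343 and 281 CPM in dntt-negative tumors. Its spread was small in both groups (531 ± 18.2 CPM, SD, n = 3, and 310 ± 30.5 CPM, n = 5), with a log2 fold change of 0.74 ± 0.16 (edgeR adjusted p = 0.446, DESeq2 adjusted p = 3.11e-05). Of the neutral amino acid transporter genes named here, SLC6A15 and SLC38A5 were higher in all 3 dntt-expressing tumors, whereas SLC43A2, described above, was lower. SLC6A15 (ENSDARG00000062821) had 391, 435 and 276 CPM in dntt-expressing and 84.2, 97.96, 140.1, 109 and 209.7 CPM in dntt-negative tumors. SLC38A5 (ENSDARG00000009901) had 161, 260.2 and 217 CPM in dntt-expressing and 133, 96.9, 102, 117 and 90.5 CPM in dntt-negative tumors.

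The list of ATF4 and amino acid supply genes, put together after values had been seen, held 31 tested members, of which 11 were higher and 0 lower at an unadjusted p under 0.05. DESeq2 called 3 of them, and the median was 0.66 (5 higher and 0.20 without 14.1.1.1). At that unadjusted p, 3.83% of all genes were higher and 5.67% lower. Tumor 14.1.1.1 carried much of this list: the glutathione-degrading enzyme gene CHAC1 (ENSDARG00000070426), a target of ATF4, had 161, 753 and 209 CPM in dntt-expressing tumors, against 124 to 232 CPM in dntt-negative tumors. The list mean was 6.86 in 14.1.1.1, against 5.89 and 6.08 in the other dntt-expressing tumors and 5.38 to 5.82 in dntt-negative tumors. Of 23 endoplasmic reticulum chaperone genes, a list also made after values had been seen, 5 were higher and 0 lower at an unadjusted p under 0.05, with a median of 0.46. Without 14.1.1.1, 3 were higher and 1 lower, with a median of 0.14, and without 2.1, 3 were higher, with a median of 0.28; without 15.2, 8 were higher, with a median of 0.80. The members included HSP90B1 (ENSDARG00000003570), the GRP94 chaperone gene, with 190.2, 258 and 185 CPM in dntt-expressing and 79.9, 53.7, 127, 115 and 78.7 CPM in dntt-negative tumors.

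The remaining higher genes with the smallest p were of mixed function. TRAP1 (ENSDARG00000024317), a mitochondrial chaperone of the HSP90 family, had 157, 192 and 391.96 CPM in dntt-expressing and 91.8, 68.7, 87.3, 91.6 and 103 CPM in dntt-negative tumors. The protease gene CAPN1 (ENSDARG00000055338) had 5.18, 19.8 and 18.7 CPM in dntt-expressing and 1.76, 0.606, 0.294, 0.492 and 1.39 CPM in dntt-negative tumors (log2 fold change 3.94 ± 0.66, edgeR adjusted p = 0.352). The arginine methyltransferase gene PRMT7 (ENSDARG00000051902) had 43.3, 58.5 and 77.0 CPM in dntt-expressing tumors and a tight 27.3 to 31.2 CPM in dntt-negative tumors. MXRA5 (ENSDARG00000076309), named for matrix remodeling, had the smallest p of the higher genes, with 180 reads over the dntt-expressing tumors and 8 over the dntt-negative ones. Most of the 180 reads came from 4.3.1 (149), with 6 in 8.4.1.1.1 and 25 in 14.1.1.1. At 0.098 CPM or less in every dntt-negative tumor, MXRA5 passed the filter on low counts through the dntt-expressing tumors alone. Its place among the higher genes is thus a description only. All 10 higher genes with the smallest p separated the groups and were called by DESeq2. The choice by p in the same tumors makes this no separate support. Of all genes, 3.13% lay above all dntt-negative tumors and DESeq2 called 0.322% higher.

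**Figure D4:**
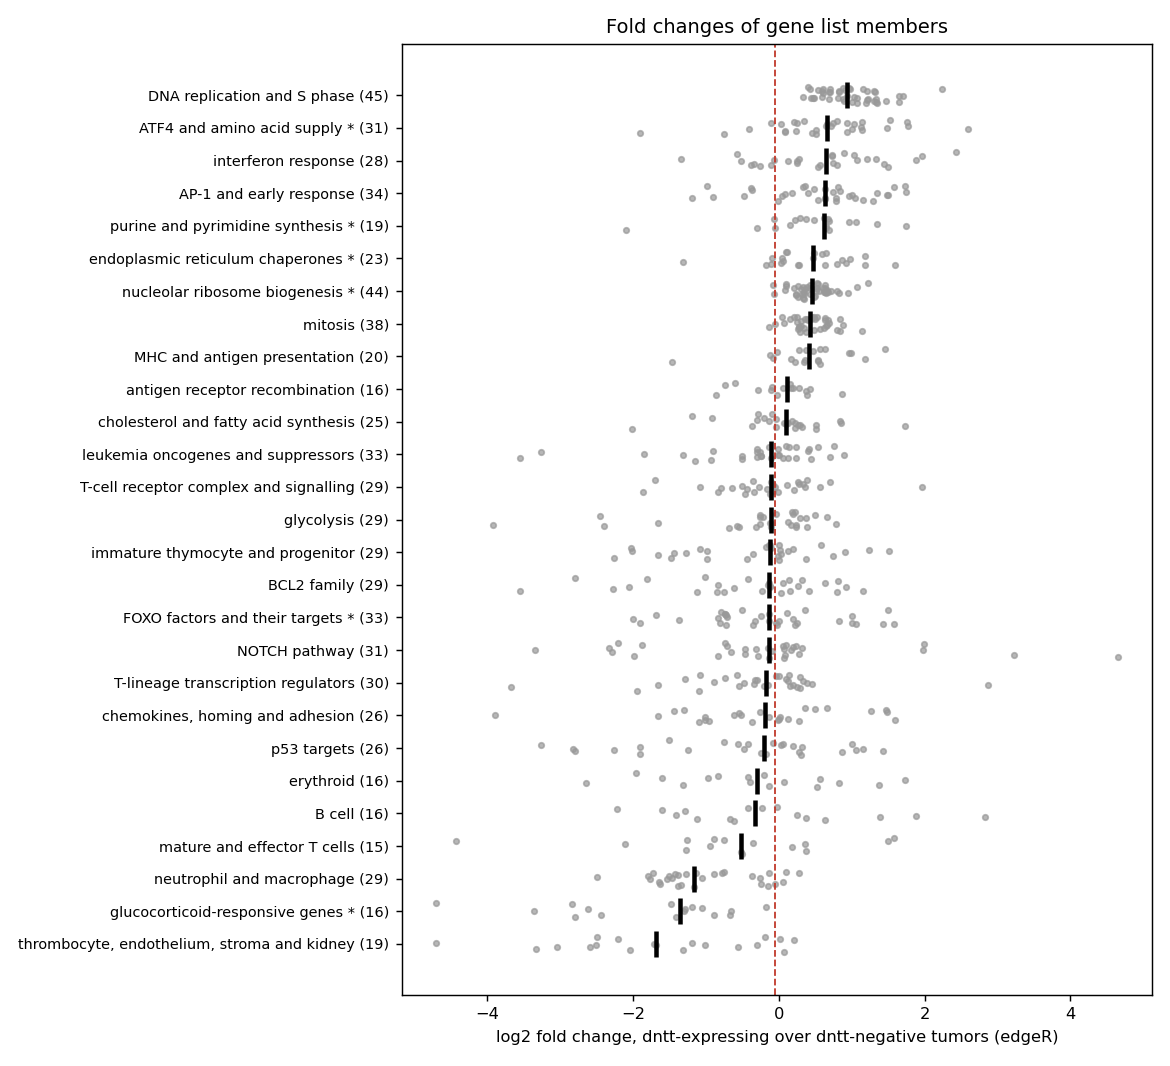
Log2 fold changes (edgeR, dntt-expressing over dntt-negative tumors) of the members of each gene list, with 1 point per tested gene, a black tick at the list median and a dashed line at the median of all genes (-0.06). An asterisk marks lists put together after values had been seen; the DNA replication list lies wholly to the right of 0 and the glucocorticoid list wholly to the left.

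Immune recognition genes had positive medians. Of 20 tested genes of MHC and antigen presentation, 4 were higher and 0 lower at an unadjusted p under 0.05, with a median of 0.42 (2 without 4.3.1 or 13.1.1, 7 with a median of 0.77 without 15.2). The shares of all genes at that p were 3.83% higher and 5.67% lower. TAP1 (ENSDARG00000079766), of the peptide transporter, had 68.9, 113 and 124 CPM in dntt-expressing and 50.4, 60.1, 59.5, 49.1 and 31.5 CPM in dntt-negative tumors. Of 28 interferon response genes, 3 were higher and 0 lower, with a median of 0.65 that became -0.21 without tumor 4.3.1 (2 higher), and 6 were higher without 13.1.1. The ubiquitin-like gene isg15 (ENSDARG00000086374) had 33.7, 52.4 and 89.9 CPM in dntt-expressing and 14.4, 12.7, 10.1, 30.5 and 5.42 CPM in dntt-negative tumors (log2 fold change 1.96 ± 0.50, edgeR adjusted p = 0.486, DESeq2 adjusted p = 0.0235). Of 34 early response genes of the AP-1 kind, 27 had a positive fold change but 0 had an unadjusted p under 0.05, and the median of 0.64 became -0.67 without tumor 14.1.1.1. Its leading member, the phosphatase gene DUSP1 (ENSDARG00000100515), was at 179.7 to 244 CPM in dntt-expressing and 177 to 956 CPM in dntt-negative tumors.

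T-lineage regulators and progenitor genes gave shares at an unadjusted p under 0.05 near or under those of all genes. ID2 (ENSDARG00000055283), an inhibitor of E proteins, led the immature thymocyte and progenitor list with 22.2, 18.2 and 3.62 CPM in dntt-expressing and 131, 34.1, 41.1, 54.7 and 36.8 CPM in dntt-negative tumors. It was the one of 29 tested members with an unadjusted p under 0.05 (log2 fold change -2.02 ± 0.67, edgeR adjusted p = 0.486). Of 30 T-lineage transcription regulators, 1 was higher and 1 lower at that level, and none separated the groups. The chromatin organizer gene satb1a (ENSDARG00000057649) had 0.329, 0.346 and 0.229 CPM in dntt-expressing and 9.76, 0.202, 2.94, 1.08 and 5.21 CPM in dntt-negative tumors, so tumor 2.1 fell under the dntt-expressing tumors. It passed the filter on low counts through the dntt-negative tumors alone. EBF1 (ENSDARG00000099849), a B-cell factor, had 9.95, 11.9 and 0.412 CPM in dntt-expressing tumors and 0.585 to 1.56 CPM in dntt-negative tumors.

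Beside the lists that follow, 3.83% of all genes were higher and 5.67% lower at an unadjusted p under 0.05. Among oncogene and suppressor genes, 0 of 33 tested were higher and 4 lower at an unadjusted p under 0.05 (2 lower without 4.3.1 or 8.4.1.1.1). HRAS (ENSDARG00000005651), a RAS GTPase gene, led that list at 0.329, 0.518 and 0.686 CPM in dntt-expressing and 1.94, 1.06, 2.40, 2.21 and 1.56 CPM in dntt-negative tumors. The list named for the BCL2 family also holds the death receptor gene fas, which is not of that family. Its 29 tested genes gave 1 higher, which was fas, and 4 lower. The list median was -0.13 (2 higher and 1 lower without 4.3.1, 4 and 4 without 8.4.1.1.1, and 2 lower without 13.1.1 or 7.2.1). The glucose transporter gene slc2a3a (ENSDARG00000013295) led the glycolysis list with 5 reads over the dntt-expressing tumors and 195 over the dntt-negative ones, while the list gave 0 higher and 3 lower of 29 (1 and 1 without 4.3.1). Of 25 cholesterol and fatty acid synthesis genes, 0 had an unadjusted p under 0.05, with a median of 0.10, and SC5D (ENSDARG00000044642), a cholesterol synthesis enzyme gene, had the smallest (edgeR adjusted p = 0.548). The chemokine, homing and adhesion list gave 1 higher and 1 lower of 26, led by icam3 (ENSDARG00000076144), an adhesion receptor gene, at 28.7, 37.8 and 67.6 CPM in dntt-expressing and 3.62 to 24.4 CPM in dntt-negative tumors. Of 15 mature and effector T-cell genes, 0 were higher and 1 lower: EOMES (ENSDARG00000104243), an effector T-cell factor gene, with 5 reads over the dntt-expressing and 274 over the dntt-negative tumors. The groups overlapped for EOMES, since dntt-negative tumor 8.3 had 1 read (0.031 CPM), under every dntt-expressing tumor. In dntt-expressing tumors slc2a3a and EOMES were at most at 0.137 and 0.259 CPM. Both passed the filter on low counts through the dntt-negative tumors alone, so their values are a description only.

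Markers of other blood and tissue cells were examined beside these genes. Of 29 neutrophil and macrophage genes, 26 had a negative fold change, against 8317 of 15220 genes in all. The median of this list was -1.17, and 2 of the 29 were lower at an unadjusted p under 0.05. Without tumor 15.2 the median was -0.57, with 21 of 27 negative and 1 lower. CEBPA (ENSDARG00000036074), a myeloid regulator, had 1.15, 3.37 and 3.43 CPM in dntt-expressing and 12.5, 7.12, 6.31, 13.5 and 33.7 CPM in dntt-negative tumors (log2 fold change -2.50 ± 0.66, edgeR adjusted p = 0.486). Summed over all 33 matched myeloid markers, levels were 383 to 811 CPM in dntt-expressing and 367 to 1958 CPM in dntt-negative tumors, with overlap, and 1 marker had no read in any high tumor. The macrophage gene csf1ra was at 28.7 and 18.1 CPM in tumors 15.2 and 13.1.1 and at most 6.83 CPM in the other 6. Of 19 genes of thrombocytes, endothelium, stroma and kidney, 6 were lower, with a median of -1.69 (1 lower without 4.3.1, 2 without 13.1.1, 3 without 14.1.1.1 or 15.2). Only these 19 of 33 matched members passed the filter on low counts, which a gene could pass through the dntt-negative tumors alone. The filter may thus have shaped this median. With thinned counts, 12 were tested, 2 were lower and the median was -1.06. Of all genes in the main fit, 5.67% were lower at an unadjusted p under 0.05. The collagen gene COL1A2 (ENSDARG00000020007) had 2 reads over the dntt-expressing tumors and 152 over the dntt-negative ones, a dntt-negative to dntt-expressing ratio of 29.7 scaled to depth (95% exact interval 8.07 to 247, counting error only). The groups overlapped for COL1A2, since 7.2.1 had 2 reads (0.084 CPM), and most dntt-negative reads came from 15.2 and 13.1.1 (66 and 52).

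The summed level of those 33 markers was 385 to 605 CPM in dntt-expressing and 264 to 749.7 CPM in dntt-negative tumors. The 24 erythroid markers summed to 219.6 to 362 CPM in dntt-expressing and 93.6 to 202 CPM in dntt-negative tumors, without overlap. A large share of that sum in the dntt-expressing tumors was tfr1a (ENSDARG00000101322), a transferrin receptor gene that dividing cells also use, at 156, 238 and 289 CPM in dntt-expressing and 22.5, 103, 128, 73.1 and 95.4 CPM in dntt-negative tumors. The alpha globin gene hbaa1 was at 0 to 4.58 CPM in dntt-expressing and 0 to 24.0 CPM in dntt-negative tumors. The 27 B-cell markers summed to 305 to 905 CPM in dntt-expressing and 253 to 546 CPM in dntt-negative tumors. Of the 16 that passed the filter, 10 had a negative fold change, near the share of all genes (8317 of 15220). Their median of -0.335 became 0.06 without 13.1.1. The part of these cells in the differences of other genes was not tested.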

How the data were processed

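Bulk polyA RNA of 11 tumors was sequenced in 20 libraries. The authors deposited raw counts per gene and library, with no normalization, made with STAR, Picard and featureCounts on GRCz10 per the submitters' processing notes. Versions, annotation, filters and strandedness: not given in the sources used here, so overlapping or near-identical genes are uncertain. Of 32105 identifiers, 26269 (81.82%) had a symbol in a gene name table; 4144 shared one.

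Libraries of a tumor (titles equal apart from a final letter) were summed; no pair of libraries agreed within sampling noise (chi-square per degree of freedom 1.309 to 31.289). Printed levels are CPM of the raw total. Tests used edgeR 4.0.16 under R 4.3.3 (TMM factors, filterByExpr on the groups, two-sided quasi-likelihood F test, Benjamini-Hochberg over all genes, threshold 0.05), and checked on simulated counts. A gene with reads in 1 group only could pass the filter. Fold changes are dntt-expressing over dntt-negative, with SE from the F statistic. DESeq2 1.42.0 gave no adjusted p for 214 genes. Other alternatives were limma-voom (limma 3.58.1), RLE and upper-quartile factors, other filters, all 11 tumors in 1 fit, thinned counts, 1 library per tumor, libraries as units, stricter thresholds, and leaving out tumors. Python 3.11.15, pandas 2.3.3 and matplotlib 3.10.9 made tables and plots.

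Groups, members and lists were chosen with earlier results of these data known. Of 724 entries in 21 gene lists, 655 were matched by symbol, and of 183 in 6 lists made after values had been seen, 173 were. Named genes are the 10 with the smallest p in each direction (with a usable symbol, and where the higher group averaged a log2 CPM of 1 or more), the 1 member with the smallest p of each list, RAG1, RAG2 and dntt. All others were chosen after their values were seen. Promoter motifs were not analysed here. Replicate numbers mark libraries of 1 tumor and do not pair the groups: the median correlation of deviations was 0.862 between libraries of a tumor and 0.02 between same-numbered libraries of different groups.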

Additional observations from a re-analysis of the deposited data

Results flagged for a closer look

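PNPLA2 (ENSDARG00000089390), the adipose triglyceride lipase gene, had 1 dntt-negative tumor far from the others. Tumor 7.2.1 stood at 7.86 CPM, against 15.6 to 19.3 CPM in the other 4 dntt-negative tumors, and remained above the dntt-expressing tumors at 2.94 to 4.76 CPM. It was the only one of 42 values tested in this way that stood out, and chance alone gives about 5% of such groups.

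The 3 tumors labelled low in self-renewal, which the comparison does not use, carried more dntt than any high tumor. Their levels were 141 CPM in 9.2, 38.5 CPM in 10.2 and 40.9 CPM in 12.2, against 20.6 CPM at most in the dntt-expressing and 0.202 CPM at most in the dntt-negative high tumors. PAX5 was at 118 to 193 CPM in these low tumors.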

How the results depend on the processing

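The counts of 0 higher and 0 lower genes held in edgeR with other scaling factors, filters, thinned counts, 1 library per tumor, all 11 tumors in 1 fit and stricter thresholds, and in limma-voom. DESeq2 called 49 higher and 227 lower. Libraries as units gave 90 higher and 72 lower with the replicate block and 198 and 180 without it, but libraries of 1 tumor are not independent. Leaving out 1 tumor gave 0 to 1 higher and 0 to 1 lower: without 8.3, c7b was higher and trbc1 lower. Without both 8.3 and 8.4.1.1.1, an alternative chosen after seeing the data, 2 were higher and 1 lower. The 112 named genes that were tested kept their direction in each alternative that could be computed for them. Apart from RAG1, they were picked by their p or their values in the same tumors. Keeping a direction is therefore no separate support. The untested receptor segments are outside this statement. Leaving out 1 tumor turned the sign of the median of the AP-1, interferon, B cell, erythroid, glycolysis, recombination, immature thymocyte, mature T-cell, chemokine and oncogene lists. The split of genes whose groups do not overlap depends on the scaling: 476 higher and 473 lower with raw totals, 424 and 566 with TMM, 304 and 658 with upper-quartile factors, 413 and 553 with RLE. The median log2 fold change of all genes was -0.06 with TMM and -0.11 with upper-quartile factors. Without a filter 734 were lower. Leaving out 1 tumor, so that fewer tumors have to separate, gave 582 to 1239 higher and 510 to 1102 lower, most of them without 8.4.1.1.1. The smallest tumor held 11573276 counts, and thinning all tumors to that depth left the counts of called genes at 0.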

Other observations

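c7b (ENSDARG00000057121), a complement component gene chosen after its values were seen, had 43.9, 41.9 and 46.0 CPM in the dntt-expressing tumors. Among the dntt-negative tumors it had 30.4 CPM in 8.3 and 1.21, 0.734, 0.935 and 0.883 CPM in 2.1, 15.2, 13.1.1 and 7.2.1. The groups did not overlap, and 8.3 lay near the dntt-expressing tumors, as it did for trbc1. With all 8 tumors the log2 fold change was 2.68 ± 1.23 (edgeR adjusted p = 0.540), and without 8.3 it was 5.47 ± 0.27 (edgeR adjusted p = 6.08e-04). GTPBP1 (ENSDARG00000053467), a GTP-binding protein gene, had 157, 406 and 376 CPM in dntt-expressing tumors and 442 CPM in 8.3, against 64.2 to 81.8 CPM in the other 4 dntt-negative tumors. Tumor 8.3 thus lay with the dntt-expressing tumors in these 3 genes, while its FKBP5, KLF9 and ATIC levels lay with the dntt-negative ones. The 3 genes are those that passed the threshold in fits without 8.3 (GTPBP1 only without 8.4.1.1.1 as well). This choice favours genes in which 8.3 departs from its group, so it is a description only. A second GTPBP1 gene (ENSDARG00000042900) had a log2 fold change of the other sign, -0.96 ± 0.67 (edgeR adjusted p = 0.668).

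The low tumors, which carry dntt at higher levels, did not share all features of the dntt-expressing high tumors. They also differed in lineage markers. In 9.2, 10.2 and 12.2, lck was at 0.802, 14.6 and 268 CPM, and the B-cell receptor gene cd79b at 96.6, 101 and 8.93 CPM. In the high tumors cd79b was at most 0.247 CPM. The part of lineage in the values below was not tested. FKBP5 was at 279, 20.6 and 152 CPM in the low tumors 9.2, 10.2 and 12.2, and foxo3b at 28.5, 25.6 and 40.5 CPM. The nucleolar list mean was 7.84, 7.90 and 7.77, and the glucocorticoid list mean 4.93, 4.07 and 5.32. trbc1 had 1, 2 and 103 reads there, and tradv30.0.6 and tradv36.2.12 had 0 reads in each low tumor.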
